A study of Mus musculus with 24 samples.

Results

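The transforming growth factor beta (TGF-beta) pathway was represented by 9 genes in the deposited count table. They were the ligand genes *Tgfb1*, *Tgfb2*, and *Tgfb3*, the storage and activation genes *Ltbp1* and *Thbs1*, the receptor genes *Tgfbr1* and *Tgfbr2*, and the transducer and inhibitor genes *Smad3* and *Smad7*. All 9 were found among the 14427 genes of the table. They were picked by gene name, with earlier results of these data known. RNA-seq was performed on 8 mouse astrocyte lines with 3 replicates each, 24 libraries in all. In each sex there was 1 p53 KO line and 1 line expressing p53 R172H, p53 Y202C, or p53 Y217C, missense mutants in the DNA-binding domain of p53. The astrocytes were taken on postnatal day 1 from the cortex of C57BL/6 *Trp53* f/- pups, and at least 3 pups were pooled per sex. The mutant lines received a retrovirus carrying mutant *Trp53* and eGFP, were sorted for eGFP, and then, like the KO lines, received a Cre lentivirus and puromycin selection. All lines, controls included, thus had 1 *Trp53* allele deleted in the germline and 1 deleted by Cre, and the KO lines had neither the retrovirus nor the sort. Passages 10 to 15 were used. Each sex was 1 primary culture and replicates were separate thaws and platings. The errors below therefore describe the spread within a line, and sex and culture cannot be told apart. Each mutation was 1 line per sex. The mutation thus cannot be told apart from the making of its line, the retrovirus and the sort included.

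TGF-beta ligands are secreted in a latent complex that latent TGF-beta binding proteins such as LTBP1 anchor in the extracellular matrix. Integrins, proteases, and thrombospondin-1, the product of *Thbs1*, can release the active ligand, which binds TGFBR2 and brings in the kinase TGFBR1. TGFBR1 phosphorylates SMAD2 and SMAD3, which move with SMAD4 to DNA that holds the letters CAGAC, while SMAD7 is an induced inhibitor that acts at the receptors. In the brain, astrocytes both make and respond to TGF-beta, and the pathway is known for its part in astrocyte maturation and in the glial scar.

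Promoter windows of 250 bases before the RefSeq start site (GRCm38.p6) were at hand for 6 of the 9 genes, in 8 windows. Those of *Tgfb1* and *Tgfb2* are shown because these 2 ligand genes moved in opposite directions in male and female Y217C lines, and that of *Smad3* because it was higher in every mutant line than in its KO. They lie at chr7:25686752-25687001 on the plus strand, chr1:186705990-186706239 on the minus strand, and chr9:63757995-63758244 on the minus strand. Both strands were searched for 5 motifs, and capitals mark the matches. The GC box was read as GGGCGG. The SMAD box was read as CAGAC. The E-box was read as CACGTG. The TATA box was read as TATAAA. The cAMP response element, read as TGACGTCA, had no match in the windows shown. None of the matches shown overlapped.
Tgfb1: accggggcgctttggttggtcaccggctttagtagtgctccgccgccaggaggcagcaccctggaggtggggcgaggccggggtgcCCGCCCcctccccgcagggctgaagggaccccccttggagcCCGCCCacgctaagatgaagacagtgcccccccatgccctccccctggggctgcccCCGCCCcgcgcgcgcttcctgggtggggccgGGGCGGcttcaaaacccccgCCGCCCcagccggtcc
Tgfb2: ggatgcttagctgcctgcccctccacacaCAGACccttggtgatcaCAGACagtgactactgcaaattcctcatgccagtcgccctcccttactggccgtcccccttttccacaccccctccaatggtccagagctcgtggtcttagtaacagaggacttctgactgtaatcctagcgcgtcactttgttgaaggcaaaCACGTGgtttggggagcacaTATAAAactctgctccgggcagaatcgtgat
Smad3: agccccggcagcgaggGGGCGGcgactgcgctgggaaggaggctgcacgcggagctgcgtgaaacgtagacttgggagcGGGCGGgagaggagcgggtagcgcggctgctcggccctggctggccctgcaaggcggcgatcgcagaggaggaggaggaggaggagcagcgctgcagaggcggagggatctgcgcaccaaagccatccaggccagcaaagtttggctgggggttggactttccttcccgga
The *Tgfb1* window had a GC content of 75.2% and 5 GC boxes, beginning 164, 123, 67, 36, and 16 bases before the start. The *Tgfb2* window had a GC content of 53.6%, 2 SMAD boxes beginning 221 and 204 bases before the start, an E-box at 51, and a TATA box at 31. The *Smad3* window had a GC content of 69.2% and 2 GC boxes at 234 and 171. Over the 8 windows, the SMAD box was found in 5, the GC box in 3, and the E-box, the TATA box, and the cAMP response element in 1 each. Of 32851 windows of this length, 42.2% held the SMAD box, 32.7% the GC box, 12.4% the TATA box, 6.02% the E-box, and 1.55% the cAMP response element. A match is a run of letters and not a measured binding site.

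Libraries held from 52787288 to 136503809 counts, with a median of 80684346, and every TGF-beta gene had at least 1126 counts in every library. Values are CPM, counts scaled to a common library size after TMM normalization, which aligns the libraries on the bulk of their genes. *Trp53* separated the KO from the mutant labels: KO libraries held 46.5 to 53.7 CPM and mutant libraries 572 to 3870 CPM. Its level does not check which mutation or which sex a library came from. The level of the mutant transcript differed between lines, at 2287 ± 80.2 CPM (SD, n = 3) in male and 1956 ± 65.4 in female R172H, 2324 ± 104 and 593 ± 18.0 in Y202C, and 1215 ± 29.5 and 3709 ± 162 in Y217C. The astrocyte label was not borne out by all of its defining markers. *Gfap* averaged 0.0482 to 0.257 CPM in every line except male Y217C (6.93 ± 1.75, SD, n = 3), and *Slc1a2* and *S100b* were below 10 CPM in every line. *Aqp4* averaged 0 to 0.113 CPM except in male Y202C (1.77) and male Y217C (8.06). No *Aqp4* count was found in any library of male R172H or female KO. *Gja1* (81.0 to 221 CPM by line) and *Sox9* (80.0 to 183 CPM) were present throughout. *Slc1a3* ranged from 3.14 CPM in female Y217C to 281 in female R172H (18.7 in female KO), *Aldh1l1* from 0.0546 in male R172H to 28.4 in male Y202C and 56.6 in male Y217C, and *Aldoc* from 0.774 to 5.77, so the astrocyte markers did not move as 1 group. All 9 astrocyte markers were in the table, and their summed level was 197 to 207 CPM in the male Y202C libraries, 501 to 535 in male Y217C, 618 to 653 in female R172H, and 248 to 379 in the other lines. All 5 fibroblast markers were in the table as well and summed to 14329 to 15403 CPM in female KO, 27366 to 32007 in female R172H, 21815 to 25320 in female Y202C, and 14197 to 14610 in female Y217C. In males they summed to 18204 to 21811 CPM in KO, 18742 to 20859 in R172H, 4035 to 4828 in Y202C, and 15018 to 15631 in Y217C. The fibroblast sum came mostly from *Col1a1*, and the other markers did not all follow it. *Pdgfrb* was 260 CPM in male Y202C, 267 in male KO, and 786 in male Y217C, *Dcn* was 4.86, 2.70, and 0.907 CPM in these lines, and *Lum* averaged 18.2 CPM in female R172H and at most 0.675 CPM in the other lines. Endothelial markers (3 of 5 in the table) summed to 43.3 to 47.6 CPM in male KO, the control of the male comparisons, mostly from *Cdh5* (33.3), and to 6.94 to 19.1 in the other lines. Mural markers (4 of 6) summed to 29.6 to 35.9 CPM in female KO and to 79.0 to 86.1, 95.2 to 117, and 63.5 to 86.1 in female R172H, Y202C, and Y217C, without overlap with the KO, and to 24.8 to 75.3 in the male lines. The mural markers did not move together in females, where *Notch3* and *Anpep* were above KO in each mutant line. *Rgs5* went from 3.02 CPM in female KO to 1.51, 0.943, and 0.289 in R172H, Y202C, and Y217C. *Des* went from 9.32 CPM to 0.395, 0.714, and 0.537. Neuronal markers (3 of 5) summed to 31.3 to 137, and oligodendrocyte lineage markers (3 of 6) to 61.5 to 335, and of 9 microglial markers 1 was in the table, at most 3.18 CPM. The neuronal sum was 126 to 129 in female KO and 31.3 to 38.2 in female R172H. In male Y202C and Y217C *Tubb3* was lower and *Map2* higher than in KO. The oligodendrocyte lineage sum, mostly *Cspg4*, was 243 to 265 in male KO and 61.5 to 64.9 in male Y217C. The astrocyte, fibroblast, mural, endothelial, neuronal, and oligodendrocyte lineage sums and the *Trp53* level differed between lines that are compared below. Their part in the results was not tested. In bulk RNA, fewer cells of a type and less RNA per cell cannot be told apart.

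Each mutant line, called below by its sex and mutation, was compared with the KO of its culture. The 3 comparisons of 1 culture share its KO libraries. A gene was said to have risen or fallen where its edgeR quasi-likelihood p, adjusted by Benjamini-Hochberg over all 14427 genes, was at most 0.05. More than 4 of the 9 TGF-beta genes passed in each mutant line except male R172H, where 2 did. Of the genes tested, 40.7% passed in male R172H, 20.2% as higher, beside 1 TGF-beta gene (*Smad3*), and 20.5% as lower, beside 1 (*Thbs1*). In male Y202C 8 of the 9 genes passed (73.0% of all genes), 5 as higher (37.6%) and 3 as lower (35.4%). In male Y217C 9 passed (70.5%), 6 as higher (34.9%) and 3 as lower (35.6%). In female R172H 8 passed (69.7%), 4 as higher (34.4%) and 4 as lower (35.3%). In female Y202C 5 passed (68.6%), 3 as higher (34.3%) and 2 as lower (34.3%). In female Y217C 9 passed (56.7%), 4 as higher (28.0%) and 5 as lower (28.7%). With so many genes past the threshold, the number of TGF-beta genes that passed is not a result about the pathway, and the sizes and directions are described instead. The median size of change, regardless of direction, was 0.09 log2 units in male R172H, 0.55 in male Y202C, and 0.56 in male Y217C, beside 0.19, 0.46, and 0.40 over all genes. In the female lines it was 0.47 in R172H, 0.34 in Y202C, and 0.37 in Y217C, beside 0.39, 0.38, and 0.28 over all genes.

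**Figure D1:**
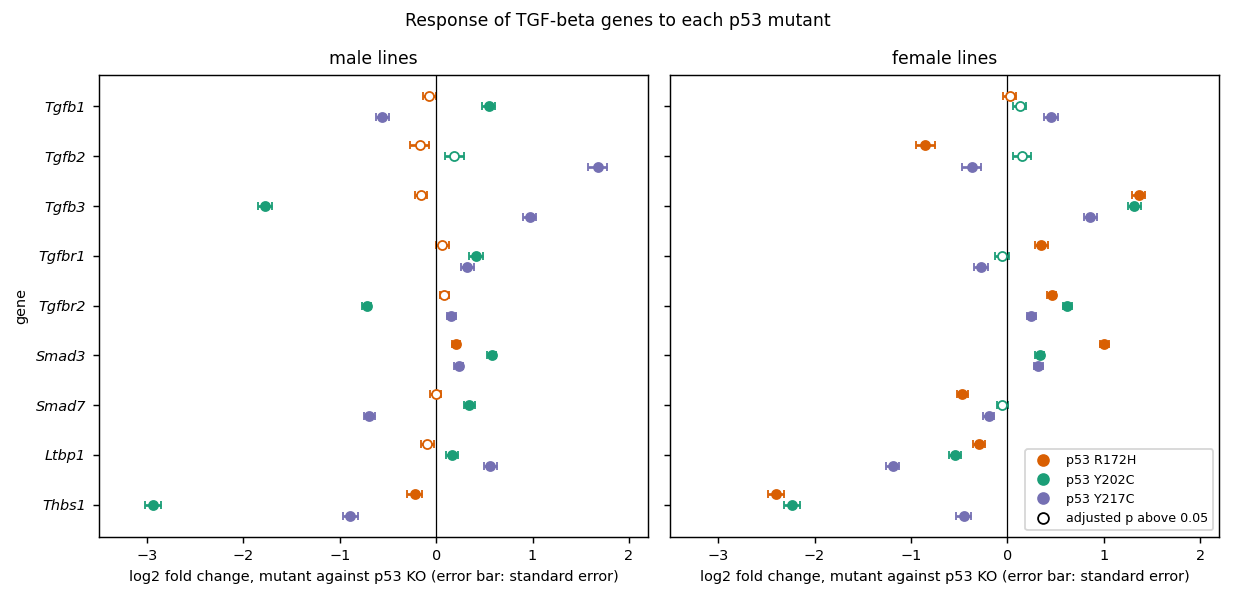
Log2 fold change of each of the 9 TGF-beta genes in each mutant line against the p53 KO line of its sex, with the standard error of the fit as error bars; open points have an adjusted p above 0.05. The largest changes were those of *Thbs1*, at -2.94 in male Y202C, -2.40 in female R172H, and -2.24 in female Y202C, followed by *Tgfb3* at -1.77 in male Y202C and *Tgfb2* at 1.67 in male Y217C.

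*Tgfb3* was the ligand gene that moved in the most lines. It rose in all 3 female mutant lines and in male Y217C, and it fell to 0.292 times its KO level in male Y202C. *Tgfb3* lies at chr12:86056745-86079041 (GRCm38, minus strand) and encodes the TGF-beta isoform best known from palate fusion. In the male lines its level was 55.6, 63.5, and 65.1 CPM in the KO libraries, 50.1, 56.6, and 58.7 in R172H, 18.8, 16.9, and 18.1 in Y202C, and 122, 118, and 122 in Y217C. In the female lines it was 52.6, 53.8, and 57.6 CPM in KO, 150, 141, and 131 in R172H, 128, 140, and 141 in Y202C, and 98.1, 102, and 98.3 in Y217C. The libraries of these lines overlapped with their KO only in male R172H, and the male Y202C libraries were the lowest of all 24. The log2 fold change was 1.36 ± 0.0666 (SE) in female R172H (edgeR adjusted p = 8.12e-15), 1.32 ± 0.0667 in female Y202C (2.84e-14), and 0.86 ± 0.0662 in female Y217C (1.32e-10). In males it was 0.97 ± 0.066 in Y217C (edgeR adjusted p = 3.48e-12), -1.77 ± 0.0695 in Y202C (1.05e-16), and -0.16 ± 0.066 in R172H, which did not pass (0.0612). The male R172H value passed with limma (-0.17, adjusted p = 0.0153), with DESeq2 (-0.16, 0.0434), with libraries scaled by their totals alone (-0.18, 0.0338), and with a stricter filter on low counts (-0.18, 0.0314). The line lowest in *Tgfb3*, male Y202C, was also lowest in the fibroblast marker sum, and the line highest in *Tgfb3*, female R172H, was highest in it. In male Y217C, where *Tgfb3* was higher than in male KO, the fibroblast sum was lower and the fibroblast marker *Pdgfrb* higher, and in male Y202C the *Pdgfrb* libraries overlapped with those of KO. In the 3 female mutant lines the mural marker sum was above KO, as were *Tgfb3* and *Tgfbr2*, but the mural markers *Rgs5* and *Des* were below KO. The part of these markers in the result was not tested.

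*Tgfb2* changed most in 1 line. It was 3.19 times as high in male Y217C as in male KO, and it fell in female R172H and female Y217C. The gene lies at chr1:186622792-186705989 (minus strand) and encodes a ligand that depends on the co-receptor betaglycan for tight binding to TGFBR2. The male Y217C libraries held 113, 117, and 117 CPM, and the male KO libraries 34.8, 37.4, and 36.4. No library of another line exceeded 50.5 CPM, so male Y217C stood apart from the other 7 lines. The log2 fold change was 1.67 ± 0.0966 (edgeR adjusted p = 1.49e-13). In females the KO libraries held 41.7, 40.1, and 37.8 CPM, the R172H libraries 22.3, 24.8, and 19.4, and the Y217C libraries 28.0, 32.2, and 32.3. Both mutant lines lay below the KO without overlap, with log2 fold changes of -0.85 ± 0.0969 (edgeR adjusted p = 3.87e-08) and -0.37 ± 0.0964 (0.00222). In Y202C the change was 0.19 ± 0.0956 in males (edgeR adjusted p = 0.0769) and 0.15 ± 0.0959 in females (0.164), and the female libraries were the most spread of any line, at 45.4, 36.9, and 50.5 CPM. Without the second of these replicates the female change was 0.27 and passed (edgeR adjusted p = 0.0122), as it did with limma (0.24, adjusted p = 0.00343) and with libraries scaled by their totals alone (0.22, 0.0474). In male R172H the change was -0.17 ± 0.0958 (edgeR adjusted p = 0.164), and it passed with limma (-0.21, 0.0203) and when those 2 lines were fitted alone (-0.18, 0.0364).

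*Tgfb1*, the isoform most often linked to fibrosis and immune control (chr7:25687002-25705077, plus strand), changed by -0.56 to 0.55 log2 units. It rose in male Y202C and female Y217C and fell in male Y217C. The male KO libraries held 56.8, 64.1, and 64.4 CPM, the male Y202C libraries 86.4, 92.4, and 92.0, and the male Y217C libraries 42.0, 39.5, and 44.3. These 3 lines did not overlap. The log2 fold change was 0.55 ± 0.0687 in male Y202C (edgeR adjusted p = 1.56e-07) and -0.56 ± 0.0694 in male Y217C (1.46e-07). In females the KO libraries held 55.0, 47.8, and 52.6 CPM and the Y217C libraries 74.98, 67.7, and 69.99, a log2 fold change of 0.45 ± 0.0691 (edgeR adjusted p = 6.37e-06). The changes in male R172H (-0.07 ± 0.0688), female R172H (0.03 ± 0.069), and female Y202C (0.13 ± 0.0694) did not pass.

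Because the exons of the 3 ligand genes differ in length, their levels were compared per kilobase of exon. Summed over the ligand genes, the level was 36.7 ± 2.54 CPM per kb in male KO and 33.3 ± 0.885 in female KO (SD, n = 3). It was 63.9 ± 1.11 in male Y217C, 55.8 ± 3.25 in female R172H, 59.1 ± 2.602 in female Y202C, and 48.7 ± 0.248 in female Y217C, against 33.5 ± 2.48 in male R172H and 30.3 ± 1.13 in male Y202C. *Tgfb3* made up 49.5% ± 0.733 of the sum in male KO and 48.5% ± 2.03 in female KO. Its share was 74.4% ± 0.925 in female R172H and 17.5% ± 1.27 in male Y202C, where *Tgfb1* made up 59.0% ± 1.75. In male Y217C *Tgfb2* made up 31.2% ± 0.797 and *Tgfb1* 13.01% ± 0.516. These shares were not tested, since an exact permutation test of 3 against 3 libraries cannot go below p = 0.1.

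**Figure D2:**
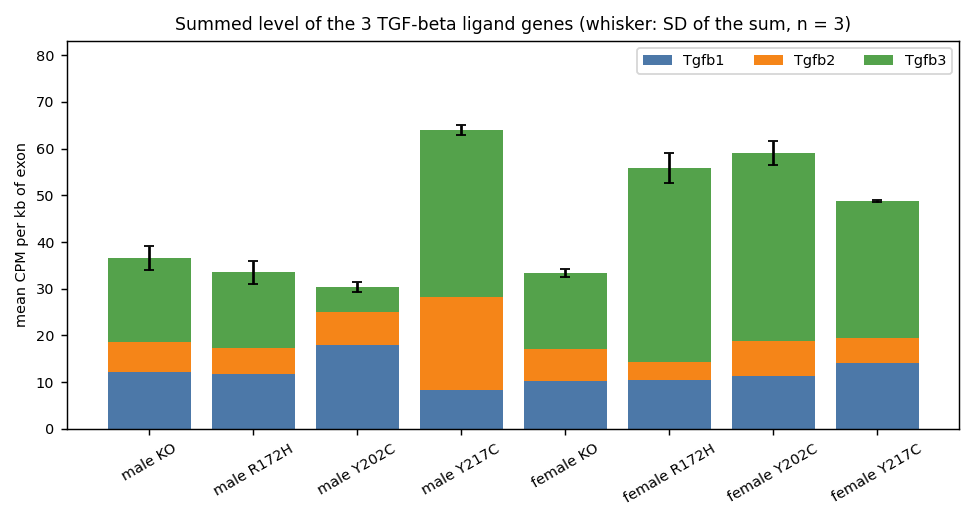
Stacked bars of the mean level of *Tgfb1*, *Tgfb2*, and *Tgfb3* in each line, in CPM per kilobase of exon, with the SD of the summed level over 3 libraries as whiskers. The sum was highest in male Y217C (63.9) and lowest in male Y202C (30.3), and *Tgfb3* formed the largest section in every line except male Y202C.

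*Thbs1* fell in every mutant line. Per kb of exon it was the most abundant of the 9 genes, at 154 to 1683 CPM by line, while no other of the 9 genes exceeded 48.0 in any line. It lies at chr2:118111876-118127133 (plus strand) and encodes thrombospondin-1, a matrix protein that can activate latent TGF-beta and is also known to restrain blood vessel growth. The male KO libraries held 6865, 7201, and 7425 CPM, and the female KO libraries 9866, 10636, and 10170. In male Y202C they held 1062, 867, and 870 CPM, in female R172H 2165, 1861, and 1774, and in female Y202C 2240, 2049, and 2209. These 3 lines had 0.130, 0.189, and 0.212 times the level of their KO. The log2 fold change was -2.94 ± 0.0848 in male Y202C (edgeR adjusted p = 4.04e-19), -2.40 ± 0.0829 in female R172H (1.21e-17), and -2.24 ± 0.0824 in female Y202C (6.60e-17). It fell less in male Y217C (3644, 4198, and 3742 CPM, -0.89 ± 0.0794) and in female Y217C (7826, 7302, and 7248 CPM, -0.45 ± 0.0789). The fall in male R172H was the smallest, with libraries at 5860, 6549, and 5999 CPM, below all male KO libraries, and a log2 fold change of -0.22 ± 0.0788 (edgeR adjusted p = 0.0265). That call was lost without male KO replicate 2 (edgeR adjusted p = 0.0626), male KO replicate 3 (0.0887), male R172H replicate 1 (0.0939), or male R172H replicate 3 (0.0801). Of the lines with the lowest *Thbs1*, male Y202C had the lowest and female R172H the highest fibroblast marker sum, and the part of these markers was not tested.

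*Ltbp1*, which encodes the binding protein that holds latent TGF-beta in the matrix (chr17:75005568-75392512, plus strand), went down in females and up in 2 of the male lines. In females the KO libraries held 404, 416, and 401 CPM, the R172H libraries 342, 327, and 328, the Y202C libraries 283, 284, and 271, and the Y217C libraries 159, 187, and 189. The 4 female lines were fully separated, and Y217C was the lowest of all 8 lines. The log2 fold changes were -0.29 ± 0.0647, -0.54 ± 0.0649, and -1.19 ± 0.0657 (edgeR adjusted p = 0.000328, 9.48e-08, and 3.31e-13). In male Y217C the libraries held 502, 535, and 502 CPM against 352, 335, and 356 in male KO, a log2 fold change of 0.56 ± 0.0648 (edgeR adjusted p = 4.37e-08). In male Y202C it was 0.16 ± 0.0646 (edgeR adjusted p = 0.0263), with libraries at 432, 376, and 360 CPM. That rise did not pass without the first of them (0.08, adjusted p = 0.253), without male KO replicate 2 (0.14, adjusted p = 0.101), or when those 2 lines were fitted alone (0.13, adjusted p = 0.104). In male R172H the change of -0.09 ± 0.0646 did not pass.

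The receptor genes changed by -0.72 to 0.62 log2 units over the 6 mutant lines. *Tgfbr2* encodes the receptor that binds the ligand first (chr9:116084293-116175360, minus strand). It rose in the 3 female mutant lines and in male Y217C and fell in male Y202C, the same directions as *Tgfb3*. In males the KO libraries held 155, 161, and 169 CPM, the Y202C libraries 102, 94.6, and 97.7, and the Y217C libraries 182, 177, and 182. The log2 fold change was -0.72 ± 0.0463 in male Y202C (edgeR adjusted p = 1.05e-12) and 0.16 ± 0.0459 in male Y217C (0.00424). In females the KO libraries held 134, 145, and 138 CPM, the R172H libraries 195, 191, and 188, the Y202C libraries 209, 215, and 217.2, and the Y217C libraries 163, 166, and 166. All 3 mutant lines lay above the female KO, by 0.46 ± 0.046, 0.62 ± 0.0461, and 0.25 ± 0.046 log2 units (edgeR adjusted p = 4.03e-09, 3.00e-11, and 7.22e-05). In male R172H the change of 0.08 ± 0.0459 did not pass, and it passed without male R172H replicate 1 (0.12, adjusted p = 0.0459).

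*Tgfbr1*, the signaling kinase (chr4:47353222-47414931, plus strand), had the narrowest range of the 9 genes, from 16.96 CPM in female Y217C to 26.1 in female R172H, a ratio of 1.54. It was higher than KO in male Y202C (25.4 ± 1.20 CPM, n = 3, against 19.1 ± 0.742), male Y217C (23.96 ± 1.598), and female R172H (26.1 ± 0.315, against 20.5 ± 2.05 in female KO). The log2 fold changes were 0.41 ± 0.0716, 0.33 ± 0.0716, and 0.35 ± 0.0712 (edgeR adjusted p = 1.72e-05, 0.000308, and 0.000115). It was lower in female Y217C (-0.27 ± 0.0724, edgeR adjusted p = 0.0028) and did not pass in male R172H or female Y202C. Per kb of exon *Tgfbr1* stood at 2.596 to 4.001 CPM by line and *Tgfbr2* at 11.97 to 26.1.

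*Smad3* rose in every mutant line. It encodes the receptor-activated SMAD that binds DNA directly (chr9:63646767-63757994, minus strand), and its promoter window is shown above. In males the KO libraries held 85.5, 94.3, and 90.0 CPM, the R172H libraries 103, 106, and 103, the Y202C libraries 134, 132, and 138, and the Y217C libraries 107, 106, and 105. In females the KO libraries held 75.3, 77.7, and 75.1 CPM, the R172H libraries 163, 148, and 147, the Y202C libraries 94.3, 98.3, and 95.6, and the Y217C libraries 96.5, 96.0, and 92.2. No mutant library overlapped with the KO libraries of its sex. The rise was largest in female R172H, 2.01 times the KO level (log2 fold change 1.00 ± 0.0457, edgeR adjusted p = 2.03e-15), and next in male Y202C (0.58 ± 0.0454, 4.67e-11). The others were 0.34 ± 0.0457 in female Y202C, 0.32 ± 0.0456 in female Y217C, 0.23 ± 0.0454 in male Y217C, and 0.21 ± 0.0454 in male R172H, where the adjusted p by edgeR was 0.000807. Female R172H was also the line highest in the fibroblast and astrocyte marker sums, and male Y202C was the lowest in both; their part in the result was not tested.

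*Smad7*, which encodes the feedback inhibitor of the receptors, fell in male Y217C, female R172H, and female Y217C and rose in male Y202C. The male KO libraries held 53.3, 49.6, and 50.2 CPM, the male Y217C libraries 32.2, 32.3, and 29.9, and the male Y202C libraries 63.1, 66.4, and 64.7. The log2 fold change was -0.70 ± 0.0568 in male Y217C (edgeR adjusted p = 1.07e-10) and 0.34 ± 0.0559 in male Y202C (6.99e-06). In females the KO libraries held 56.1, 55.8, and 53.9 CPM, the R172H libraries 41.9, 38.8, and 39.1, and the Y217C libraries 46.9, 49.0, and 49.0. Both mutant lines lay below the KO, by -0.47 ± 0.0562 (edgeR adjusted p = 8.40e-08) and -0.19 ± 0.0562 (0.00515). *Smad7* did not pass in male R172H or female Y202C, and the female Y217C fall did not pass when libraries were scaled by their totals alone (-0.12, adjusted p = 0.0734).

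**Figure D3:**
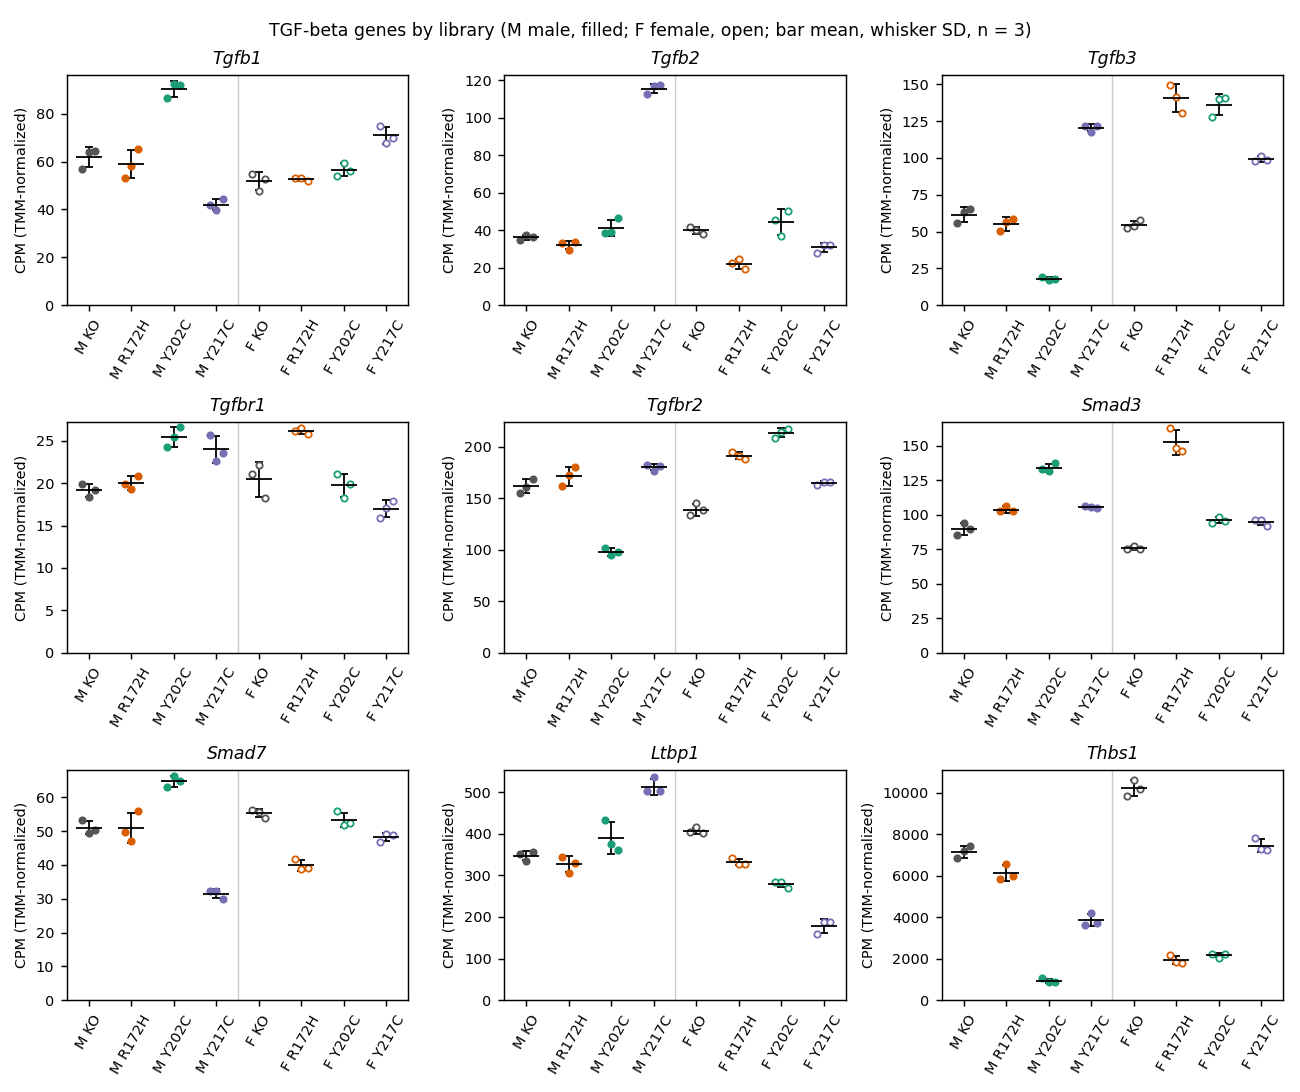
Level of each of the 9 TGF-beta genes in CPM (linear axis from 0) in every library, by line, with males (M) as filled and females (F) as open points, a bar at the mean and whiskers for the SD of 3 libraries. *Tgfb2* stood apart in male Y217C, *Thbs1* was far below KO in male Y202C and in female R172H and Y202C, and *Smad3* was above KO in all 6 mutant lines.

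Ordered by mean level, neighboring lines often could not be separated by their libraries. For *Tgfb3* the order was female R172H, female Y202C, male Y217C, female Y217C, male KO, male R172H, female KO, and male Y202C. The libraries overlapped between female R172H and female Y202C, male KO and male R172H, and male R172H and female KO. For *Thbs1* the order was female KO, female Y217C, male KO, male R172H, male Y217C, female Y202C, female R172H, and male Y202C, with overlap between female Y217C and male KO and between female Y202C and female R172H. *Tgfbr1* had 5 overlapping neighbors and *Smad7* 4, and *Tgfb1*, *Tgfb2*, *Tgfbr2*, *Smad3*, and *Ltbp1* had 3 each. From the lowest to the highest line, levels differed by 10.95 times for *Thbs1*, 7.83 times for *Tgfb3*, 5.22 times for *Tgfb2*, and 2.88 times for *Ltbp1*, and by 1.54 to 2.18 times for the other 5 genes.

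Under the same mutation, a TGF-beta gene often differed from KO by unlike amounts in the male and female cultures. The *Trp53* transcript differed between them as well, by an interaction of 1.91 ± 0.0766 under Y202C (edgeR adjusted p = 2.21e-16) and -1.67 ± 0.0764 under Y217C (4.70e-15), and 0.17 ± 0.0759 under R172H, which did not pass (0.0586). Its part in the results was not tested. For the TGF-beta genes too this was tested as the interaction, the male log2 fold change minus the female one. For R172H 7 of the 9 genes passed (58.0% of all genes), for Y202C 8 (68.0%), and for Y217C 6 (54.8%). The largest was *Tgfb3* under Y202C, at -1.77 in males and 1.32 in females, a difference of -3.09 ± 0.0964 (edgeR adjusted p = 2.33e-18). Under Y217C *Tgfb3* rose in both cultures, and the difference of 0.11 ± 0.0929 did not pass (edgeR adjusted p = 0.325). *Tgfb2* under Y217C was at 1.67 in males and -0.37 in females, a difference of 2.05 ± 0.136 (edgeR adjusted p = 4.73e-12). *Ltbp1* under Y217C was at 0.56 and -1.19, a difference of 1.75 ± 0.0922 (edgeR adjusted p = 5.60e-14). *Thbs1* under R172H was at -0.22 and -2.40, a difference of 2.18 ± 0.113 (edgeR adjusted p = 4.93e-14).

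Genes that passed in both cultures but in opposite directions were *Ltbp1*, *Tgfb3*, and *Tgfbr2* under Y202C and *Ltbp1*, *Tgfb1*, *Tgfb2*, and *Tgfbr1* under Y217C, with none under R172H. These were 3, 4, and 0 of 9, beside 23.1%, 12.2%, and 11.9% of all genes. *Smad3* and *Thbs1* passed in the same direction in both cultures under each mutation, and under Y217C *Smad7*, *Tgfb3*, and *Tgfbr2* did as well. These were 2 of 9 under R172H (19.3% of all genes), 2 under Y202C (29.4%), and 5 under Y217C (31.4%). For *Smad3* the size differed between cultures under R172H (-0.80 ± 0.0642, edgeR adjusted p = 1.83e-10) and Y202C (0.24 ± 0.0643, 0.00208), and did not pass under Y217C (-0.09 ± 0.0643, 0.271).

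**Figure D4:**
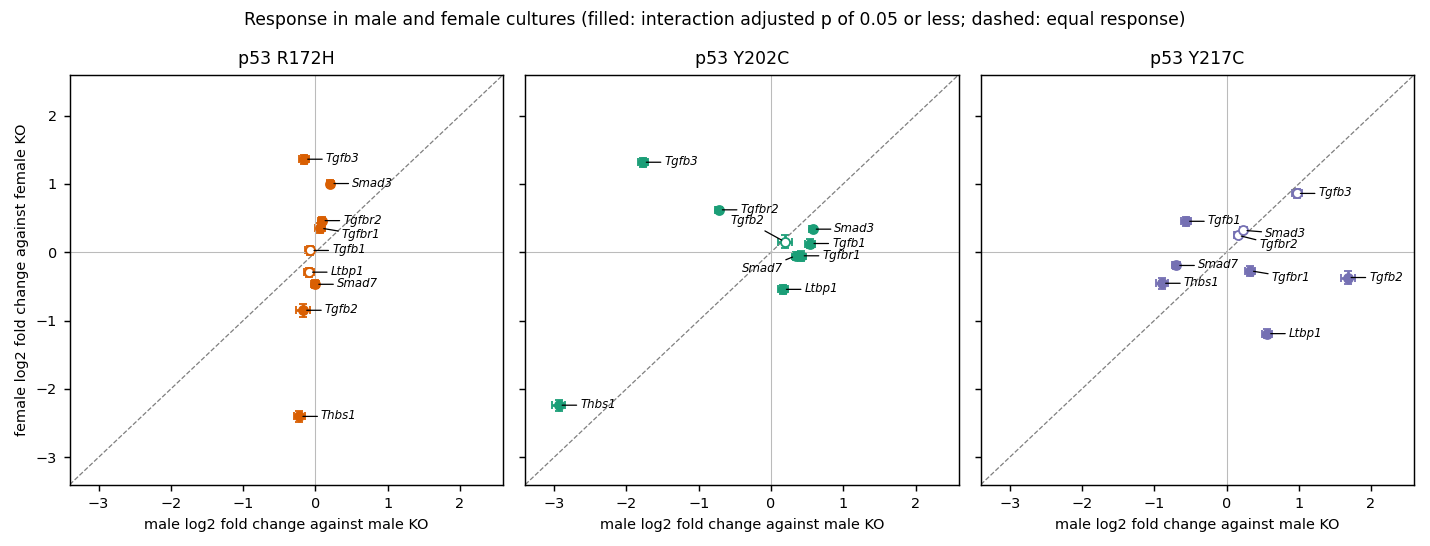
Female against male log2 fold change of the 9 TGF-beta genes for each p53 mutation, each against the KO of its sex, with standard errors of the fit; filled points have an interaction adjusted p of 0.05 or less, and the dashed line marks an equal response. Under R172H the points spread along the female axis, from -2.40 for *Thbs1* to 1.36 for *Tgfb3*, and stay between -0.22 and 0.21 on the male axis.

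Without any mutant, the KO lines differed in 5 of the 9 genes (31.1% of all genes), 3 higher in males (17.2%) and 2 higher in females (13.8%). *Tgfb1* (0.25 ± 0.0689, edgeR adjusted p = 0.00619), *Tgfbr2* (0.22 ± 0.0459, 0.000682), and *Smad3* (0.24 ± 0.0455, 0.000201) were higher in male KO. *Thbs1* (-0.51 ± 0.0789, edgeR adjusted p = 1.80e-05) and *Ltbp1* (-0.23 ± 0.0646, 0.00848) were higher in female KO. *Tgfb2*, *Tgfb3*, *Tgfbr1*, and *Smad7* did not pass, with *Tgfb3* at 0.17 ± 0.0659 (edgeR adjusted p = 0.0563). *Tgfb3* passed with limma (0.20, adjusted p = 0.00118), DESeq2 (0.17, 0.0431), library totals alone (0.21, 0.0206), the stricter filter (0.18, 0.0338), and only those lines fitted (0.17, 0.0297), and also without male KO replicate 1 or female KO replicate 3 (0.0111 and 0.042). *Smad7* passed with limma (-0.14, adjusted p = 0.00833) and with only those lines fitted (-0.12, 0.0453), as did *Tgfb2* with only those lines fitted (-0.14, 0.036). The *Tgfb1* difference did not pass without female KO replicate 2 (0.20, adjusted p = 0.0524).

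Other genes of the pathway were taken from lists by role. Their counts are to be read beside the shares of all genes that passed, 40.7%, 73.0%, and 70.5% in male R172H, Y202C, and Y217C and 69.7%, 68.6%, and 56.7% in the female lines. Of 12 further storage and activation genes, 10 were in the table. In males, 6 of them passed in R172H (4 higher, 2 lower), 9 in Y202C (5, 4), and 9 in Y217C (3, 6). In females, 10 passed in R172H (6, 4), 10 in Y202C (7, 3), and 8 in Y217C (3, 5). These were 60%, 90%, and 90% of the list in males and 100%, 100%, and 80% in females. *Ltbp2*, a matrix protein related to LTBP1, had the largest fall of this list in all 3 male mutant lines. From 68.1 ± 4.70 CPM (n = 3) in male KO it went to 19.4 ± 1.97 in R172H, 6.56 ± 0.103 in Y202C, and 8.06 ± 0.602 in Y217C, log2 fold changes of -1.81, -3.38, and -3.08. In females it rose from 37.9 ± 1.33 CPM in KO to 208 ± 21.5 in R172H (2.46), 214 ± 12.9 in Y202C, and 129 ± 3.49 in Y217C (1.77). The rise in female Y202C was the largest of the list there (2.496 ± 0.0764, edgeR adjusted p = 2.36e-18). *Lrrc32*, which encodes the cell surface anchor GARP of latent TGF-beta, had the largest rise in male Y202C (1.42 ± 0.0956), female R172H (9.92 ± 0.697 to 125 ± 3.77 CPM, 3.66 ± 0.105), and female Y217C (1.85 ± 0.1002). *Itgb8*, the beta chain of an integrin that activates latent TGF-beta, led in male Y217C (21.3 ± 1.99 to 64.0 ± 4.42 CPM, 1.59 ± 0.0838), and *Ltbp4* in male R172H (0.58 ± 0.0655). The largest falls in females were those of *Ltbp4* in R172H (-0.83 ± 0.066) and of *Fbn1*, fibrillin-1, in Y202C (-0.36 ± 0.0564) and Y217C (-1.73 ± 0.058).

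Of 11 further receptor and transducer genes, 10 were in the table, and 2 passed in male R172H, 7 in male Y202C, and 10 in male Y217C, where 8 were lower (35.6% of all genes were lower). In females, 10 passed in R172H, 7 in Y202C, and 7 in Y217C. *Tgfbr3*, the co-receptor betaglycan, rose in the 3 female mutant lines, from 39.0 ± 2.23 CPM in KO to 128 ± 7.499 in R172H (1.72 ± 0.072), 64.8 ± 4.47 in Y202C (0.73 ± 0.0713), and 61.5 ± 2.499 in Y217C (0.66 ± 0.0711). In males it fell from 48.9 ± 1.26 CPM to 35.5 ± 1.64 in Y202C (-0.46 ± 0.0712) and 16.997 ± 1.45 in Y217C (-1.53 ± 0.0739) and was at 55.5 ± 5.30 in R172H (0.18 ± 0.0705, edgeR adjusted p = 0.0425). That male R172H call was lost under 9 of the alternatives. *Zfyve9*, the SMAD anchor SARA, had the largest rise of this list in male Y202C (34.0 ± 0.269 to 70.9 ± 4.96 CPM, 1.06 ± 0.0527). The receptor gene *Acvrl1* had it in female R172H (1.23 ± 0.102 to 4.48 ± 0.139 CPM, 1.86 ± 0.225). *Acvrl1* also had the largest fall of the list in male R172H (-1.37), Y202C (-1.04), and Y217C (-2.64) and in female Y217C (-1.97). Its level was low, at 0.323 to 4.48 CPM by line. *Eng* was at 2.08 to 5.39 CPM by line and *Acvr2b* at 1.12 to 2.85. Of 13 inhibitor genes, all in the table, 5 passed in male R172H, 12 in male Y202C (8 higher), and 10 in male Y217C, and in females 13 passed in R172H (10 lower, beside 35.3% lower over all genes), 10 in Y202C, and 6 in Y217C. *Dcn*, decorin, which binds TGF-beta and is also a fibroblast marker, rose in the 3 female mutant lines. From 2.203 ± 0.694 CPM in female KO it went to 105 ± 10.4 in R172H (5.59 ± 0.196), 15.4 ± 1.35 in Y202C (2.82 ± 0.187), and 7.98 ± 1.05 in Y217C (1.88 ± 0.188). In males *Dcn* rose in Y202C, from 2.70 ± 0.441 to 4.86 ± 0.679 CPM (0.83 ± 0.186), and fell in Y217C (-1.58). *Skil*, the SMAD corepressor SnoN, had the largest fall in female R172H (-0.94 ± 0.0826), *Bambi*, a decoy receptor, in male and female Y202C (-0.90 ± 0.0872 and -1.53 ± 0.090), and *Pmepa1* in male R172H (-0.54 ± 0.0547). *Tgif1*, another SMAD corepressor, led the rises in male Y202C (1.28 ± 0.0545) and male R172H (0.26 ± 0.054).

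Of 18 genes known as TGF-beta targets, 8 passed in male R172H (5 higher, 3 lower), 15 in male Y202C (5, 10), and 15 in male Y217C (6, 9), and in females 15 in R172H (9, 6), 14 in Y202C (7, 7), and 11 in Y217C (5, 6). These were 44.4%, 83.3%, and 83.3% of the list in males and 83.3%, 77.8%, and 61.1% in females, beside the shares of all genes given above. The median log2 fold change of these targets was 0.04, -0.45, and -0.25 in the male lines and 0.13, 0.03, and -0.03 in the female lines, beside medians of -0.01 to 0.01 over all genes. *Postn*, the matrix protein periostin, rose from 85.7 ± 6.39 CPM in female KO to 1962 ± 329 in R172H (4.52 ± 0.157) and 981 ± 81.7 in Y202C (3.52 ± 0.150). It also rose in male Y217C, from 125 ± 12.1 to 170 ± 17.1 CPM (0.44 ± 0.137), and did not pass in male R172H or female Y217C. *Col1a1* (collagen I, also a fibroblast marker) fell from 17294 ± 1546 to 3361 ± 358 CPM in male Y202C (-2.36 ± 0.0809), where *Postn* fell too (-1.76). The largest fall of the target list was that of *Tnc*, tenascin-C, in male R172H (-0.84 ± 0.069) and female Y202C (-2.27 ± 0.0719). Within male Y217C it was that of *Tgfbi* (-2.17 ± 0.155). In female R172H it was that of *Ccn2*, connective tissue growth factor (-1.41 ± 0.116), and in female Y217C that of the smooth muscle gene *Cnn1* (-1.61 ± 0.065). *Acta2*, smooth muscle actin, led the rises in male R172H (0.63 ± 0.0612), the transcription factor gene *Bhlhe40* in male Y202C and Y217C (1.35 ± 0.0563 and 1.21 ± 0.0562), and the cell cycle inhibitor gene *Cdkn2b* in female Y217C (0.70 ± 0.0759).

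**Figure D5:**
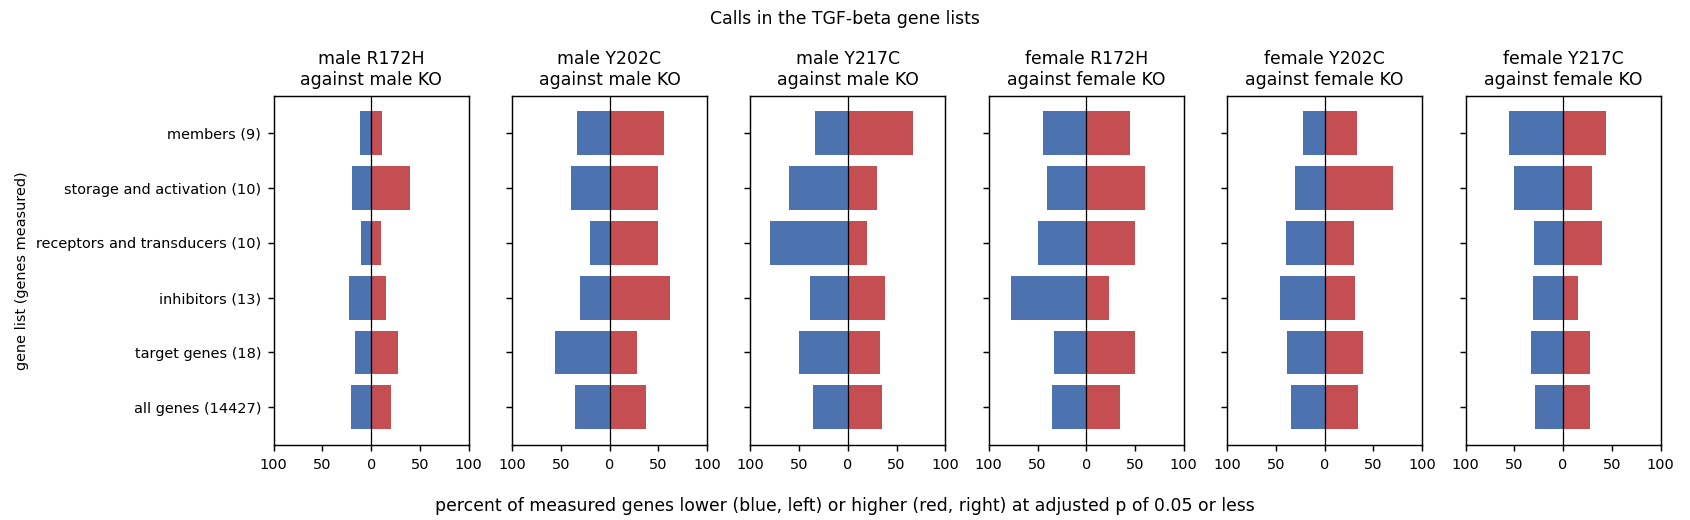
Percent of measured genes in each TGF-beta list that were lower (blue, left) or higher (red, right) than KO at an adjusted p of 0.05 or less, for each mutant line, with all 14427 genes in the last row. In male Y217C 8 of 10 further receptor and transducer genes were lower, and in female R172H 10 of 13 inhibitor genes were lower.

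For each gene, the gene outside the 9 with the most similar pattern was taken as the one with the highest Pearson r of log2 CPM over the 24 libraries of 8 lines. It was *Tor4a* for *Tgfb1* (r = 0.95), *Pea15a* for *Tgfb2* (0.97), *Wrn* for *Tgfb3* (0.96), *Pak3* for *Tgfbr1* (0.90), *Fzd6* for *Tgfbr2* (0.97), *Tvp23a* for *Smad3* (0.96), *Maml1* for *Smad7* (0.94), *Rragb* for *Ltbp1* (0.93), and *Ncapd3* for *Thbs1* (0.97). Within the 9 genes *Tgfb3* and *Tgfbr2* were the most alike (r = 0.94), and *Thbs1* and *Smad3* the least (r = -0.79). These values describe 8 lines, since the 3 libraries of a line are close to each other.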

How the data were processed

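RNA-seq libraries (poly(A) RNA, SMARTer amplification) were made from 24 samples, grouped by the sex, genotype, and replicate number in the sample labels. The authors aligned reads with STAR 2.5.1a to the Ensembl primary assembly of GRCm38, counted reads with a single, unambiguous gene by featureCounts, and deposited raw counts without normalization. The strand of counting is not given in the sources used here. Genes on the opposite strand overlap *Tgfb2*, *Tgfb3*, and *Thbs1*, and how reads from the overlaps were assigned is therefore not known.

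Identifiers were matched to GENCODE M21 symbols (14350 of 14427). Genes above 1 CPM in at least 2 libraries entered edgeR 4.0.16 in R 4.3.3 (TMM, quasi-likelihood test, 1 mean per line, all 24 libraries), with Benjamini-Hochberg adjustment and a threshold of 0.05; the filter removed none. The standard error is the absolute log2 fold change divided by the square root of F. The code of the fit was run on simulated counts with few genes changed, evenly up and down, in 1 line. Far larger shares of genes passed in the comparisons here, so that run does not test the fit under such conditions. Alternatives were limma 3.58.1 (voomWithQualityWeights, the test of the study), DESeq2 1.42.0, its size factors in edgeR, library totals, other filters, only the lines compared, a replicate block, and leaving out each replicate. Log2 CPM used a prior count of 2.

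The 9 members and the wider lists were chosen with earlier results of these data known. From each wider list, the text names the genes with the largest rise and fall past the threshold in each comparison of a mutant with its KO, where each library of the higher line had 10 counts or more, and leaves some of them out. Each member's most similar gene was named by Pearson r. Libraries of a line correlated at 0.991 to 0.997 and differed by more than sampling noise, so they were not merged as repeat runs of 1 library. They remain platings of 1 line, and the tests rest on the spread within a line.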

Additional observations from a re-analysis of the deposited data

Results flagged for a closer look

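For 21 pairs of effects, the response of a TGF-beta gene to a mutation differed between the male and female cultures by the interaction test of edgeR (male log2 fold change minus female, with its adjusted p over all genes). These were 7 of 9 genes under R172H, 8 under Y202C, and 6 under Y217C, beside 58.0%, 68.0%, and 54.8% of all genes. With so many genes past the threshold, this number is not a result about the pathway. Each sex was 1 culture and each mutation 1 line per sex. Sex and culture, or mutation and line, therefore cannot be told apart, and no explanation was tested.

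For p53 R172H, the difference was 0.68 for *Tgfb2* (adjusted p = 0.00016), -1.52 for *Tgfb3* (1.37e-12), -0.29 for *Tgfbr1* (0.0178), -0.38 for *Tgfbr2* (2.58e-05), -0.80 for *Smad3* (1.83e-10), 0.47 for *Smad7* (2.30e-05), and 2.18 for *Thbs1* (4.93e-14). The *Tgfbr1* difference did not pass without female KO replicate 3 (-0.21, adjusted p = 0.0721).

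For p53 Y202C, it was 0.42 for *Tgfb1* (adjusted p = 0.000576), -3.09 for *Tgfb3* (2.33e-18), 0.46 for *Tgfbr1* (0.000313), -1.34 for *Tgfbr2* (8.23e-15), 0.24 for *Smad3* (0.00208), 0.40 for *Smad7* (0.000114), 0.71 for *Ltbp1* (2.91e-07), and -0.70 for *Thbs1* (6.01e-06).

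For p53 Y217C, it was -1.01 for *Tgfb1* (adjusted p = 4.26e-09), 2.05 for *Tgfb2* (4.73e-12), 0.60 for *Tgfbr1* (2.49e-05), -0.50 for *Smad7* (9.63e-06), 1.75 for *Ltbp1* (5.60e-14), and -0.44 for *Thbs1* (0.00186).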

How the results depend on the processing

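The number of TGF-beta genes past the threshold stayed within 1.5 times under the alternatives, except in male R172H against KO (2, with limma 4; leaving out 1 replicate, 1 to 3, the 1 without male KO replicate 2 or 3) and male KO against female KO (5, with only those lines fitted 8). Leaving out 1 replicate gave 7 to 8 in male Y202C, 5 to 6 in female Y202C, 4 to 6 between the KO lines, 6 to 8 for the R172H interaction, and no change in the other 5 counts. Over all lines, replicate numbers did not pair the libraries (mean r of same-numbered deviations -0.0116 over 84 pairs, 0.00571 over 168 others). By comparison, 0 to 2 of 3 replicates correlated best with their own number. The highest mean was in male R172H against KO, where r of same-numbered deviations was 0.0674 to 0.246 (mean 0.14). With a replicate block the counts did not move by 1.5 times (2 in male R172H). The *Tgfbr3* rise in male R172H then no longer passed (0.18, edgeR adjusted p = 0.0571).

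Values near 0 that had not passed changed sign: *Smad7* in male R172H (0.012 with limma; -0.0757 to 0.048 leaving out 1 replicate), *Tgfb1* in female R172H (-0.028 to 0.071 leaving out 1), *Tgfbr1* (0.018 with library totals alone; -0.13 to 0.0078 leaving out 1) and *Smad7* (0.018 with library totals alone) in female Y202C, and the Y202C interaction of *Tgfb2* (-0.13 with limma, -0.039 with library totals, -0.0100 with the stricter filter, and -0.077 to 0.11 leaving out 1).

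With library totals alone, the median of all genes moved to 0.10 log2 units in male Y217C, and the share of higher calls moved from 49.3% to 60.7% in female Y217C and from 55.5% to 65.7% between the KO lines. Mean levels that moved by more than their SD were those of male Y217C (*Tgfb1* 44.9, *Tgfb2* 124, *Tgfb3* 129, *Tgfbr1* 25.6, *Tgfbr2* 193, *Smad3* 113, *Smad7* 33.7, and *Ltbp1* 549 CPM), female R172H (*Tgfb1* 51.0, *Tgfbr1* 25.3, *Tgfbr2* 185, and *Ltbp1* 322), female Y217C (*Tgfb3* 101 and *Tgfbr2* 169), female KO (*Smad3* 73.6, *Smad7* 53.5, and *Ltbp1* 394), and male R172H (*Smad3* 102). The cause was not tested. With 3 libraries per line from 1 culture per sex, these errors do not cover the spread between animals.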
